A study of Rattus norvegicus with 6 samples.

Results

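The genes described here encode the chains of collagen VI (Col6a1, Col6a2 and Col6a3), the network-forming collagen Col8a1 and the fibril-associated collagens Col12a1, Col14a1 and Col16a1. They were taken by symbol from a table of 16209 genes, in which 7 of 7 were found. All 7 passed the filter on low values that left 14639 genes for testing. Bulk RNA sequencing was done on 6 liver samples of fibrotic rats. Of these, 3 came from ginkgetin treatment, a biflavone known from Ginkgo leaves, at 10 mg/kg/day, and 3 from vehicle treatment. The labels do not say whether each sample came from its own animal. The sources used here do not give the cause of the fibrosis, the strain, sex or age of the rats, or the length of treatment. All of the samples were from fibrotic rats, and no healthy liver was analysed here. The value columns taken as vehicle are headed TAA, letters that the sample labels lack, and every direction rests on that assignment.

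Collagen VI is a heterotrimer of the Col6a1, Col6a2 and Col6a3 chains that assembles into beaded microfilaments around cells. A C-terminal piece of the Col6a3 chain, endotrophin, is released by proteases and is followed in blood as a sign of fibrosis. FACITs (fibril-associated collagens with interrupted triple helices) do not form fibrils themselves but sit on the surface of fibrils of collagen I and other types. In the liver, stellate cells and portal fibroblasts that turn into myofibroblasts are the main known source of these matrix proteins.

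Levels are normalized reads, that is, reads divided by a size factor of the library. Fold changes are differences of log2(normalized reads + 1), ginkgetin minus vehicle, from limma, with p values adjusted by the Benjamini-Hochberg method across the 14639 genes. The libraries held 13372367 to 14933853 reads assigned to genes. Vehicle replicate 3 stood apart from the rest: Alb, the albumin gene of hepatocytes, took 2.89% of its reads, against 6.56% to 12.1% in the ginkgetin libraries and 9.44% and 7.77% in the other vehicle libraries. Summed hepatocyte markers, 12 of 12 detected, made up 9.71% to 15.4% of reads in ginkgetin libraries and 3.96% to 12.7% in vehicle libraries. The main results are therefore also given without vehicle replicate 3. In whole liver, fewer cells of a type and less RNA per cell cannot be told apart.

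In 6 of the genes every ginkgetin library lay under every vehicle library, and Col14a1 was the exception. The mean was lower with ginkgetin in 7 of 7, at a median log2 fold change of -2.11, where the median over all genes tested was -0.02 and 51.4% had a lower mean. The groups did not overlap, on the lower side, in 6 of 7, against 16.1% of the genes tested. An unadjusted limma p under 0.05 on the lower side was also reached by 6 of 7, against 13.2%.

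Whether a gene passed the adjusted threshold of 0.05 depended on the tool. In limma 0 of 7 passed on the lower side, where 0.00683% of all genes did. With edgeR on recovered reads 0 of 7 passed (0% of genes), while 6 of 7 had an unadjusted p under 0.05 on the lower side (14.4% of genes). DESeq2 on the same reads called 5 of 7 lower, against 7.54% of genes. It gave an adjusted p for 14016 of the 14639 genes, and the fibrillar collagens Col1a1 and Col3a1 were not among them. Without vehicle replicate 3 the median log2 fold change was -1.27, and the groups did not overlap in 6 of 7 (19.3% of genes). In limma 5 of 7 then had an unadjusted p under 0.05 on the lower side (10% of genes), and 1 of 7 passed the adjusted threshold (0.458% of genes).

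**Figure D1:**
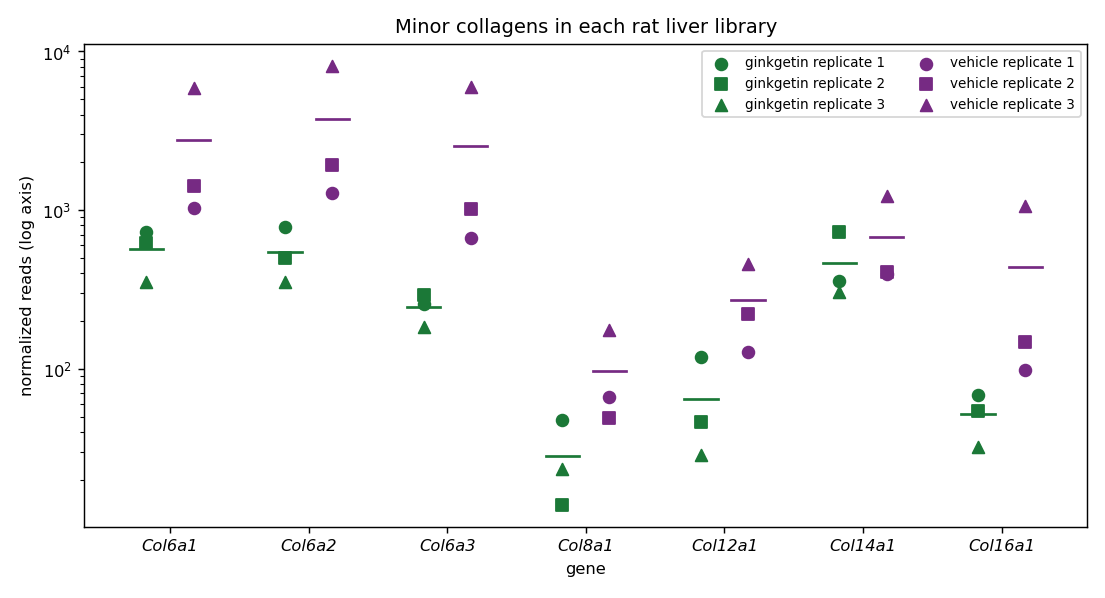
Normalized reads of each gene (log axis) in the 3 ginkgetin and 3 vehicle libraries, with symbols for replicate numbers and bars for group means. In 6 genes every ginkgetin point lies under every vehicle point, Col14a1 is the exception, and vehicle replicate 3 is the highest point of 7 of 7 genes.

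Of the 7 genes, 4 had an entry in RefSeq's GRCr8 promoter table (Col6a1, Col6a3, Col8a1 and Col16a1), which runs from 250 bases before to 50 bases after an annotated start. Col6a2, Col12a1 and Col14a1 had no entry. Col6a1, Col6a3 and Col16a1 are shown, as the genes with an entry whose levels ran most closely together over the libraries. They are Col6a1 at chr20:11905440-11905739 (plus strand), Col6a3 at chr9:98886909-98887208 (minus strand) and Col16a1 at chr5:147672846-147673145 (plus strand). Capitals mark matches on either strand to 5 motifs. These are the TATA box, TATAAA, the GC box of the factor Sp1, GGGCGG, the box known by its letters CCAAT, the SMAD-binding element, searched as CAGAC, and the site of the factor AP-1, searched as TGANTCA.
Col6a1: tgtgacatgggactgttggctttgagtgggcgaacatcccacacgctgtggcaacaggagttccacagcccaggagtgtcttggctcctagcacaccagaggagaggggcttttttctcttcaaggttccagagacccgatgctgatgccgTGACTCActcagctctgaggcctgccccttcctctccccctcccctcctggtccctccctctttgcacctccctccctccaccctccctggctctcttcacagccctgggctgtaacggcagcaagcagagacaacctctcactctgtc
Col6a3: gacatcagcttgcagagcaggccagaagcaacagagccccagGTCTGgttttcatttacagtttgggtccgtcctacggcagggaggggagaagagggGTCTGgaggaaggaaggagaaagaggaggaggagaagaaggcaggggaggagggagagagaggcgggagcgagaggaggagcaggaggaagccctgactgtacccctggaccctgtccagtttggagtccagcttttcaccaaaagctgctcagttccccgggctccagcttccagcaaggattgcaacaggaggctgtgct
Col16a1: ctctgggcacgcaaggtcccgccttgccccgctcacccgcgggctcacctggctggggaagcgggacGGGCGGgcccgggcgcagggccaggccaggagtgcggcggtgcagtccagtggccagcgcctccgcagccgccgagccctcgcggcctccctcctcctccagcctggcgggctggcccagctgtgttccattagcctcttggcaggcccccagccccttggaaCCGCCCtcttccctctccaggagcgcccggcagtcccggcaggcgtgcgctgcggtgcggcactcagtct

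The marked matches differ between these promoters, and none overlaps another. Col6a1 holds 1 AP-1 match, at 99 bases before the annotated start, a motif found in 7.33% of 27457 rat promoters of this length. Col6a3 holds 2 matches to CAGAC, 208 and 152 bases before the start, and 13720 of the 27457 promoters hold at least 1. Col16a1 holds 2 GC boxes, 183 and 20 bases before the start, and Col8a1 holds 4 of them and 1 CAGAC, where 34.9% of promoters hold a GC box. TATAAA (14.3% of promoters) and CCAAT (37.7%) matched 0 of the 4. The G and C content was 59.7% in Col6a1, 58.7% in Col6a3, 62.7% in Col8a1 and 75.0% in Col16a1, against a median of 52.3%. A match describes letters and not binding.

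Each of the collagen VI chains was lower in every ginkgetin library than in every vehicle library. Col6a3, the long chain that carries endotrophin, stood at 256, 292 and 183 normalized reads in ginkgetin replicates 1 to 3, against 663, 1011 and 5943 in vehicle replicates 1 to 3. The ginkgetin values lay close together, and the highest of them was 0.440 of the lowest vehicle value. Its log2 fold change of -2.72 (SE 0.72, 95% interval -4.38 to -1.07, limma adjusted p = 0.118) was lower than that of all but 2.81% of genes tested. Without vehicle replicate 3 the change was -1.77 (SE 0.278), and it passed in limma (adjusted p = 0.0368).

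Col6a2, a short chain of the trimer, had 782, 496 and 350.1 normalized reads with ginkgetin and 1291, 1911 and 8105 with vehicle. No ginkgetin library reached the lowest vehicle library. The log2 fold change was -2.40 (SE 0.65, limma adjusted p = 0.123), and -1.61 (SE 0.336, adjusted p = 0.0705) without vehicle replicate 3. Col6a1, the other short chain, had 733, 618 and 350.1 normalized reads with ginkgetin and 1037, 1426 and 5878 with vehicle. Its groups were also separate, with the highest ginkgetin value at 0.707 of the lowest vehicle value. The log2 fold change was -1.92 (SE 0.622, limma adjusted p = 0.164), and -1.17 (SE 0.321, adjusted p = 0.128) without vehicle replicate 3. Col6a1 and Col6a2 are neighbours on chromosome 20 in the RefSeq GRCr8 table, with 0 protein-coding genes and 2 lncRNA genes between them.

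The proportions of the chains were also compared, as the share of each in the collagen VI reads of a library. Col6a3 supplied 14.5%, 20.7% and 20.7% of the collagen VI reads in ginkgetin replicates 1 to 3, against 22.2%, 23.3% and 29.8% in vehicle replicates 1 to 3. Every ginkgetin share lay under every vehicle share, although the exact binomial 95% intervals of ginkgetin replicates 2 (18.5% to 23.1%) and 3 (17.8% to 23.9%) overlapped that of vehicle replicate 1 (20.6% to 23.8%). Col6a1 supplied 41.4%, 44.0% and 39.6% with ginkgetin, against 34.7%, 32.8% and 29.5% with vehicle, again without overlap. Col6a2 supplied 39.7% ± 4.41 with ginkgetin and 42.6% ± 1.71 with vehicle (SD, n = 3 each), and its groups overlapped. These intervals cover counting error only, and shares of reads are not shares of molecules because transcript lengths differ.

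**Figure D2:**
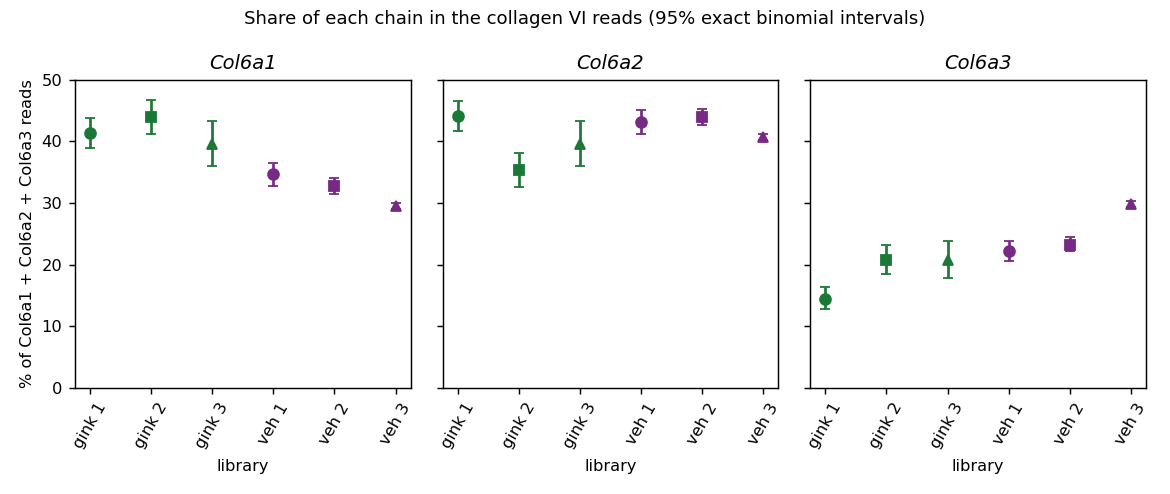
Percentage of the collagen VI reads that came from each chain, per library, with exact 95% binomial intervals, ginkgetin libraries on the left of each panel. The Col6a1 share is 39.6% or more in ginkgetin libraries and 34.7% or less in vehicle libraries, and the Col6a3 share is 20.7% or less against 22.2% or more.

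On the log2 scale the Col6a3 minus Col6a1 difference averaged -1.17 ± 0.30 with ginkgetin and -0.37 ± 0.35 with vehicle (SD, n = 3 each), a difference between the groups of -0.80. The two-sided exact permutation test gave p = 0.1, which 3 libraries a group cannot go below, and an adjusted p of 0.17 over the 17 differences between genes that were computed. For the shares of Col6a1 and Col6a3 the exact permutation test gave p = 0.1 (adjusted p = 0.143 over 10 shares). The Col6a2 minus Col6a1 difference was -0.07 ± 0.21 with ginkgetin and 0.40 ± 0.08 with vehicle, also without overlap (-0.47, exact permutation p = 0.1, adjusted p = 0.17). Both held their direction without vehicle replicate 3, at -0.60 and -0.44. Col6a3 minus Col6a2 overlapped between groups (-0.33, exact permutation p = 0.5, adjusted p = 0.607).

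The chains that can take the place of Col6a3 in the trimer had few reads. Col6a6 had 22.1, 48.6 and 14.8 normalized reads with ginkgetin and 23.7, 26.6 and 44.8 with vehicle (log2 fold change -0.26, SE 0.562, and 0.01 without vehicle replicate 3). Col6a5 had 7.74, 3.47 and 11.1 with ginkgetin and 5.93, 9.98 and 47.3 with vehicle. Col6a4 had 0, 0 and 1.24 with ginkgetin and 0, 4.99 and 38.7 with vehicle. All 3 overlapped between groups, and most reads of Col6a4 and Col6a5 came from vehicle replicate 3.

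Col8a1, a short-chain collagen that forms hexagonal networks, had few reads. Its level was 47.5, 13.9 and 23.5 normalized reads with ginkgetin and 66.4, 49.1 and 175 with vehicle, from 12 to 43 reads with ginkgetin and 56 to 285 reads with vehicle. The groups were separate by little, since the highest ginkgetin value was 0.969 of the lowest vehicle value. The log2 fold change was -1.69 (SE 0.625, limma adjusted p = 0.192), and -1.16 (SE 0.572, adjusted p = 0.365) without vehicle replicate 3. Col8a2, the other chain of this collagen, had 26.5, 19.7 and 11.1 normalized reads with ginkgetin and 96.1, 146 and 184 with vehicle (log2 fold change -2.86, SE 0.46, limma adjusted p = 0.0688). Whether the chains of collagen VIII differed in their change was not tested.

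Among the fibril-associated collagens, Col16a1 and Col12a1 were lower in every ginkgetin library and Col14a1 was not. Col16a1, a FACIT found near cell surfaces and in microfibrils, had 68.5, 54.4 and 32.2 normalized reads with ginkgetin and 98.5, 148 and 1065 with vehicle. Vehicle replicate 3 held 8.64 times the mean of the other vehicle libraries, the largest such excess among the 7. The log2 fold change was -2.32 (SE 0.818, limma adjusted p = 0.181), and -1.27 (SE 0.432, adjusted p = 0.196) without that library. Col12a1, a FACIT of tissues under tension, had 118, 46.3 and 28.5 normalized reads with ginkgetin and 128, 223 and 458 with vehicle. Ginkgetin replicate 1 lay just under vehicle replicate 1, at 0.923 of it. The log2 fold change was -2.11 (SE 0.616, limma adjusted p = 0.139), and -1.63 (SE 0.564, adjusted p = 0.204) without vehicle replicate 3.

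Col14a1, a FACIT that takes part in fibril growth, overlapped between the groups. It had 355, 728 and 307 normalized reads with ginkgetin and 394, 410.0 and 1221 with vehicle. Ginkgetin replicate 2 exceeded vehicle replicates 1 and 2, and with that ginkgetin library left out the groups of Col14a1 did not overlap. The log2 fold change was -0.44 (SE 0.499, 95% interval -1.58 to 0.71, limma adjusted p = 0.637) and changed sign to 0.10 (SE 0.343) without vehicle replicate 3. Col14a1 made up 65.5%, 87.9% and 83.5% of the summed reads of Col12a1, Col14a1 and Col16a1 in ginkgetin replicates 1 to 3, against 63.5%, 52.5% and 44.5% in the vehicle replicates. The exact binomial 95% intervals of ginkgetin replicate 1 (61.1% to 69.7%) and vehicle replicate 1 (59.2% to 67.6%) overlapped. The mean share was 79.0% ± 11.8 with ginkgetin and 53.5% ± 9.52 with vehicle (SD, n = 3 each, exact permutation p = 0.1, adjusted p = 0.143). Collagen reads are those of 41 collagen genes, and Col1a2 was not among the deposited genes. Col18a1 supplied 6904 of 14295, 9853 of 17957 and 6451 of 10574 of them in ginkgetin replicates 1 to 3. In vehicle replicates 1 to 3 it supplied 10003 of 23989, 15260 of 40852 and 6405 of 255843, so shares of collagen reads also move with Col18a1. Of all collagen reads, Col14a1 took 2.25%, 3.50% and 2.35% with ginkgetin, against 1.38%, 1.21% and 0.778% with vehicle. Col12a1 and Col16a1 together took 1.18%, 0.484% and 0.463% with ginkgetin, against 0.796%, 1.09% and 0.970% with vehicle, and these overlapped. The 3 collagen VI chains took 8.24% ± 2.57 of collagen reads with ginkgetin and 12.0% ± 1.29 with vehicle, and all 7 genes 11.8% ± 2.74 with ginkgetin and 14.2% ± 1.19 with vehicle (SD, n = 3 each), both with overlap.

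**Figure D3:**
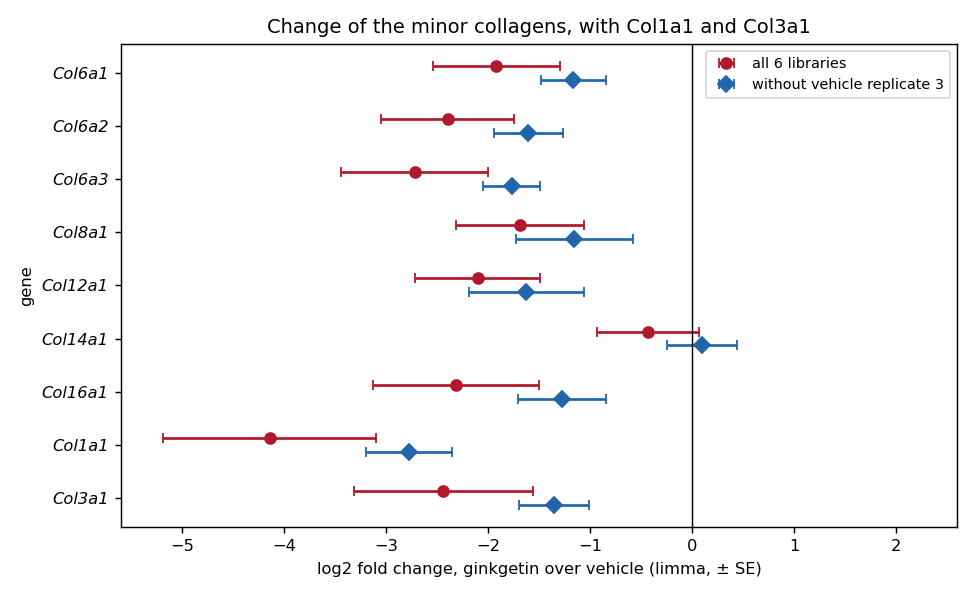
Log2 fold change (ginkgetin over vehicle, limma, bars ± SE) of the minor collagens and of Col1a1 and Col3a1, from all 6 libraries (circles) and without vehicle replicate 3 (diamonds). Leaving that library out moves each estimate toward 0, for Col6a3 to -1.77 and for Col14a1 past 0, to 0.10.

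With DESeq2, Col6a3 (adjusted p = 0.000497), Col6a2 (0.00198), Col16a1 (0.00589), Col6a1 (0.0114) and Col12a1 (0.0255) were called lower, and Col8a1 (0.0727) and Col14a1 (0.603) were not. Without vehicle replicate 3, DESeq2 called Col6a3, Col6a2 and Col6a1 (3.58% of genes called lower), edgeR called Col6a3 and Col6a2 (1.17%), and limma called Col6a3. Without vehicle replicate 1, limma called Col6a2 (adjusted p = 0.0419) and Col6a3 (0.0374), where 3.04% of genes were called lower. With any of the other 4 libraries left out, limma called 0 of 7.

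Vehicle replicate 3 was the highest library for 7 of 7 genes, against 34% of the genes tested. Its excess over the mean of vehicle replicates 1 and 2 ran from 2.61 times for Col12a1 to 8.64 times for Col16a1. The highest and lowest vehicle values differed by 3.10 times for Col14a1 to 10.8 times for Col16a1, and the ginkgetin values by 1.59 times for Col6a3 to 4.16 times for Col12a1. Ginkgetin replicate 3 was the lowest library for 6 of 7, and ginkgetin replicate 2 was the lowest for Col8a1. The share of all genes tested that were lowest in ginkgetin replicate 3 was not computed.

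Relative to the main chain of collagen I, 7 of 7 genes were higher in the ginkgetin libraries without overlap, as were 89.6% of all genes tested, so the count is no result about these genes. Col1a1 had 458, 294 and 157 normalized reads with ginkgetin and 1459, 2473 and 32623 with vehicle. The log2 difference between the groups ran from 1.42 for Col6a3 and 1.74 for Col6a2 through 1.83 for Col16a1, 2.04 for Col12a1, 2.22 for Col6a1 and 2.45 for Col8a1 to 3.70 for Col14a1. Each had an exact permutation p of 0.1 and an adjusted p of 0.17. The order rests on vehicle replicate 3: without it the difference was 1.15 for Col12a1, below the 1.17 of Col6a2, and 1.61 for Col6a1, 1.62 for Col8a1 and 2.87 for Col14a1.

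Relative to Col3a1, the chain of collagen III, only Col14a1 of the 7 was separate between the groups, against 67.9% of genes that stood higher without overlap. Col14a1 minus Col3a1 averaged -2.86 ± 0.25 on the log2 scale with ginkgetin and -4.87 ± 0.95 with vehicle (SD, n = 3 each, exact permutation p = 0.1, adjusted p = 0.17). The difference between the groups was 1.46 without vehicle replicate 3. For the other 6 genes the difference lay between -0.28 for Col6a3 and 0.75 for Col8a1, with overlap and an adjusted p of 0.567 to 0.8 in the exact permutation test. A p of this size does not show that they changed alike.

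**Figure D4:**
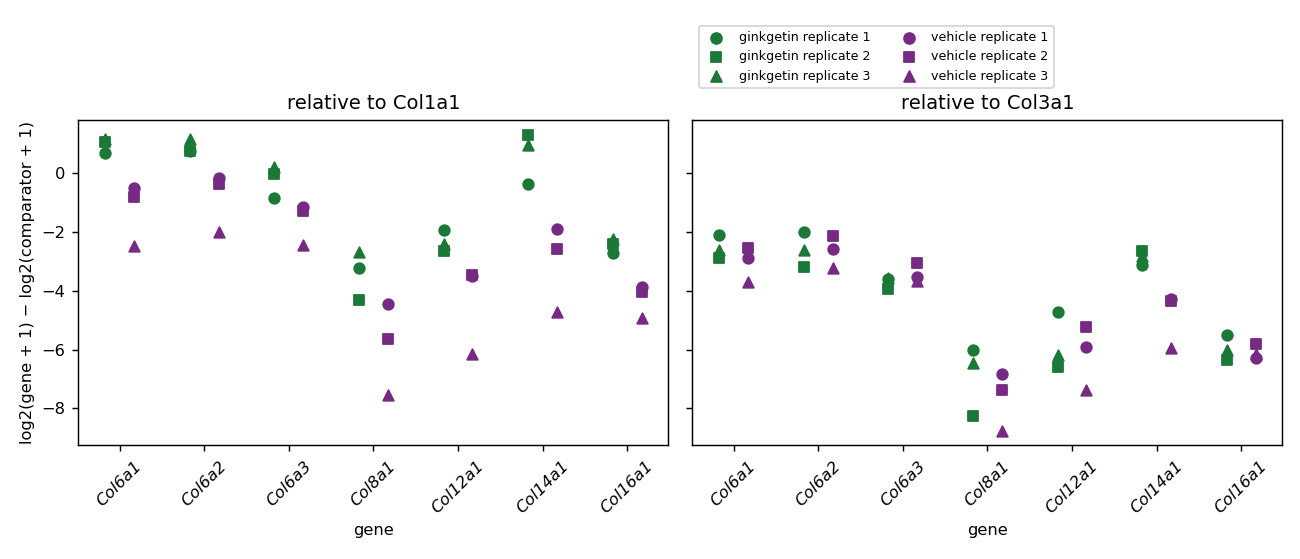
Per-library log2 difference of each gene from Col1a1 (left panel) and from Col3a1 (right panel), ginkgetin points left of vehicle points. Against Col1a1 the groups are separate for each of the 7 genes, and against Col3a1 for Col14a1 alone, at -2.86 with ginkgetin and -4.87 with vehicle on average.

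Among the 37 collagen genes tested, ordered from the lowest log2 fold change, Col6a3 was at rank 7, Col6a2 at 11, Col16a1 at 12, Col12a1 at 14, Col6a1 at 17, Col8a1 at 18 and Col14a1 at 26. Of 7 fibrillar collagens tested, 6 had a lower mean with ginkgetin (median -2.44, and 5 of 7 with no overlap on the lower side). The median was -1.36, with 5 of 7 at a lower mean, without vehicle replicate 3. Of 23 other collagens outside this set, 16 had a lower mean and 7 a higher one (median -0.64, 8 without overlap on the lower side). Without vehicle replicate 3, 18 of the 23 had a lower mean and their median was -0.77. Over all genes tested, with all libraries, 51.4% had a lower mean and 16.1% were lower without overlap. Col4a1 and Col4a2, chains of basement membrane collagen, lay at -2.52 and -2.49, near Col6a2, and at -1.59 and -1.60 without vehicle replicate 3. The smallest p values in these lists belonged to Col11a1 (adjusted p = 0.0668), Col8a2, Col4a5 (-1.21, adjusted p = 0.0886) and Col9a3, a FACIT chain (-3.55, adjusted p = 0.091), and 0 genes passed in limma with all libraries. Col18a1, a basement membrane collagen also made by hepatocytes, had 6904, 9853 and 6451 reads with ginkgetin and 10003, 15260 and 6405 reads with vehicle before scaling (log2 fold change 0.08, SE 0.566, and -0.47 without vehicle replicate 3). Col4a2 and Col18a1 are named here after their values were seen.

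**Figure D5:**
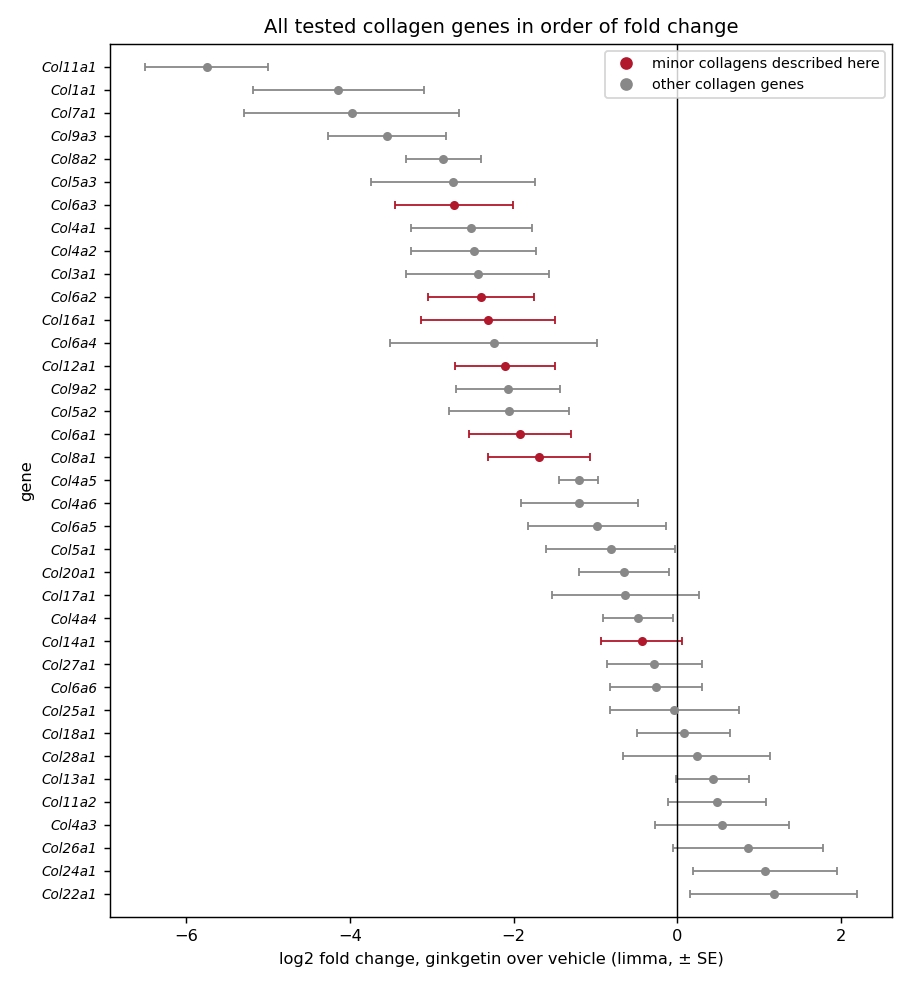
Log2 fold change (ginkgetin over vehicle, limma, bars ± SE) of the 37 collagen genes tested, ordered from lowest to highest, with the minor collagens described here in red. They spread from -2.72 (Col6a3) to -0.44 (Col14a1), and 6 of 7 lie within the first 18 ranks.

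Receptors of these collagens mostly had a lower mean with ginkgetin, and 0 passed in limma. Of 10 tested, 8 had a lower mean, 4 of them without overlap, against 51.4% and 16.1% of all genes tested. Without vehicle replicate 3, 7 of the 10 had a lower mean, and the median was -0.71, against -1.16 with all libraries. Ddr1, a collagen-activated receptor kinase, had 52.0, 20.8 and 37.1 normalized reads with ginkgetin and 117, 250.3 and 318 with vehicle (log2 fold change -2.58, SE 0.492, limma adjusted p = 0.0843). The shared integrin subunit Itgb1 lay at -0.85 (SE 0.313). Itga11, a collagen-binding integrin subunit, lay at -2.30 on few reads, and Itga10 had 0 reads in the ginkgetin libraries and 5, 4 and 7 reads in the vehicle libraries. Antxr2, a cell surface receptor that takes up collagen VI, had 106, 235 and 221 normalized reads with ginkgetin and 54.6, 113 and 117 with vehicle. Its log2 fold change of 0.97 (SE 0.437, limma adjusted p = 0.258) had overlap between the groups, and it is named here after its values were seen.

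Of 11 matrix partners tested, 9 had a lower mean and 5 were lower without overlap, against 51.4% and 16.1% of all genes tested. The median of the partners was -1.62, and 0 passed in limma. The median was -1.02, with 8 of 11 at a lower mean, without vehicle replicate 3. Biglycan (Bgn), a small proteoglycan that binds collagen VI, had 3194, 2880 and 2070 normalized reads with ginkgetin and 5009, 5869 and 13765 with vehicle (log2 fold change -1.47, SE 0.474). Fbn1, the microfibril protein fibrillin, lay at -2.30 (SE 0.489), and Matn4, a matrilin adaptor of collagen VI, at -3.63 (SE 0.735) on 2 to 4 reads per ginkgetin library. Postn, a matricellular protein, had 0, 1.16 and 0 normalized reads with ginkgetin and 16.6, 32.4 and 2394 with vehicle, with the highest value in vehicle replicate 3. Without that library Fbn1 lay at -1.72 and passed in limma (adjusted p = 0.0418).

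Of the folding and processing genes, 10 of 15 had a lower mean and 5 a higher one (median -0.18, 4 lower and 1 higher without overlap, 0 passing in limma). Over all genes tested, 51.4% had a lower mean and 16.1% were lower without overlap. Without vehicle replicate 3, 6 of 15 had a lower mean and the median was 0.11. Plod2, a lysyl hydroxylase that prepares collagen for crosslinking, had 67.4, 31.2 and 18.6 normalized reads with ginkgetin and 213.5, 326 and 1140 with vehicle (log2 fold change -3.62, SE 0.677, limma adjusted p = 0.0804). Serpinh1, the collagen chaperone HSP47, lay at -1.93 (SE 0.732), Fkbp10, a collagen foldase, at -2.40 (SE 0.811), and P4ha3, a prolyl hydroxylase subunit with few reads, at -2.78 (SE 1.04). Serpinh1 lay at -0.97, Fkbp10 at -1.36 and P4ha3 at -1.63 without vehicle replicate 3.

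Markers of matrix-producing and bile duct cells had lower summed levels with ginkgetin beside these genes, and their part in the result was not tested. None of their markers passed in limma with all libraries. Of 12 stellate cell and myofibroblast markers, 9 had a lower mean (6 without overlap), against 51.4% and 16.1% of all genes tested. Their summed level was 2260 to 3319 normalized reads with ginkgetin and 3396 to 16956 with vehicle. The smallest p values were those of Cygb (log2 fold change -3.50), Pdgfrb (-2.49), Pdgfra (-1.36) and Thy1 (-4.08), while Acta2, which marks activated myofibroblasts, lay at -0.35 with overlap and turned to 0.83 without vehicle replicate 3. The 3 markers with a higher mean were Ngfr (1.80, on few reads), Lrat (0.92) and Reln (0.48), each with overlap. They lay at 2.62, 1.54 and 0.82 without vehicle replicate 3. Without that library 7 of the 12 had a lower mean, the list's median was -0.69, against -1.34 with all libraries, and Cygb (limma adjusted p = 0.0301) and Pdgfrb (0.029) passed. Of 10 portal fibroblast and mesothelial markers, 8 had a lower mean, with a summed level of 463 to 598 with ginkgetin and 1388 to 4960 with vehicle, led by Eln (-3.61), Msln (-5.42), Entpd2 (-1.75) and Cd34 (-2.35). Of 10 cholangiocyte markers, 9 had a lower mean, with a summed level of 1055 to 1684 with ginkgetin and 3180 to 22478 with vehicle, led by Sctr (-3.21), Cftr (-3.45), Epcam (-1.88) and Cldn4 (-4.04). Eln, Sctr, Cftr, Epcam and Cldn4 also passed in limma without vehicle replicate 3. The median was then -1.12 for the portal list, against -1.67 with all libraries, and -2.61 for the cholangiocyte list, against -2.92. No gene of these lists was at 0 in every library.

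Macrophage, endothelial and lymphocyte markers overlapped between the groups in summed level, and 0 of them passed in limma with all libraries. A lower mean with ginkgetin was seen in 6 of 10 macrophage, 3 of 9 endothelial and 8 of 10 lymphocyte markers. Over all genes tested it was seen in 51.4%. Macrophage markers summed to 3667 to 7045 normalized reads with ginkgetin and 3871 to 36317 with vehicle, with Gpnmb at -4.45, Lgals3 at -3.21 and Timd4 at 2.09, while Trem2 had 3, 0 and 0 reads with ginkgetin and 57, 123 and 3135 with vehicle. Without vehicle replicate 3 Gpnmb lay at -2.78 (limma adjusted p = 0.029) and Lgals3 at -1.94. Endothelial markers summed to 4991 to 6828 with ginkgetin and 4662 to 6369 with vehicle, with Vwf at -2.08, Clec4g at 1.96, Fcgr2b at 1.02 and Kdr at 0.75. Lymphocyte markers summed to 760 to 1169 with ginkgetin and 1069 to 2412 with vehicle, with Cd4 at -1.06, Gzma at 2.16, Ptprc at -0.74 and Cd3d at -1.04. Cd4 lay at -0.57, Gzma at 1.13 and Ptprc at -0.41 without vehicle replicate 3. The 6 skeletal muscle markers among the deposited genes, 4 of them tested, summed to 79.8 to 161 with ginkgetin and 164 to 1301 with vehicle. Des (-2.29), which is also in the stellate list, supplied 1255 of the highest sum and lay at -1.25 without vehicle replicate 3. Hepatocyte markers had a higher mean with ginkgetin in 12 of 12, led by Apoa2 (1.86), Otc (1.71), Asgr2 (1.18) and Asgr1 (1.20), and in 11 of 12 without vehicle replicate 3, at 1.33, 1.12, 0.57 and 0.59 for these 4 genes.

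Correlations between the genes were computed over the 6 libraries, which share their scaling and the high values of vehicle replicate 3, and are given as a description. Pearson's r of log2 levels was 0.996 for Col6a1 with Col16a1, 0.992 for Col6a1 with Col6a2, 0.986 for Col6a1 with Col6a3 and 0.986 for Col6a3 with Col16a1. The lowest value was 0.426, for Col8a1 with Col14a1. Outside the set, of 7313 genes above the median level, Rcn1 (r = 0.998), Tbc1d2b (0.998) and Ppp1r9b (0.998) were most like Col6a1, and Col1a1 (0.998), Ramp1 (0.998) and Rab31 (0.998) were most like Col6a2. Gpnmb, a macrophage marker (0.999), Cdk19 (0.997) and Sirpa (0.997) were most like Col6a3, and Rcn1 (0.998), Ctla2a (0.997) and Sort1 (0.997) most like Col16a1. Anapc4 (0.993), RGD1562402 (0.992) and Arhgap45 (0.991) were most like Col8a1, and Lamb2 (0.998), Ptk2b (0.995) and Rasip1 (0.994) most like Col12a1. Ets1 (0.991), Swap70 (0.991) and Plekha1 (0.985) were most like Col14a1. High values over these 6 libraries were not limited to the genes named: of the 7313, 362 had r above 0.95 with Col6a1 and 42 with Col14a1.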

How the data were processed

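RNA was measured in 6 rat liver samples, 3 given ginkgetin and 3 given vehicle, and per the labels' protocols a SMARTER kit for mRNA was used. The submitters' processing notes name the build mRatBN7.2. Nothing on the aligner, counter, annotation or strandedness was given in the sources used here. The deposited values are a signal, normalized read counts per gene, and the deposited table does not name the normalization. In 99.67% of rows every library's value was a whole number of reads times 1 factor (within 0.02), including all 7 genes, and reads were recovered by rounding. Median-of-ratios size factors from those reads lay within 0.147% of them.

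The columns of 3 samples carry the letters TAA, which the labels lack. They were taken as vehicle replicates 1 to 3, and every direction rests on this. The labels do not say that samples came from separate animals, so the tests describe how far these samples spread, which may be technical. The least chi-square of reads per degree of freedom between any pair was 49.9, so none was a duplicate. Replicate numbers gave no sign of pairing the samples, and the labels name no pairs.

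The main test was limma 3.58.1 (R 4.3.3, robust, with a mean-variance trend) on log2(value + 1). It took in genes at 1 or more in at least 3 libraries and adjusted over 14639 genes at a threshold of 0.05. It was checked on simulated reads. edgeR 4.0.16 (TMM, quasi-likelihood) and DESeq2 1.42.0 were run on recovered reads. Differences between genes used exact two-sided permutation tests over libraries (scipy 1.17.1). Marker genes named in the text are up to 4 per list with the smallest p, and for each gene described the 3 with the highest correlation. Named outside this rule are Alb, Acta2, Ngfr, Lrat, Reln, Antxr2, Col4a2, Col18a1, Col6a4, Col6a5 and Col6a6. The genes and lists were chosen with earlier results of these data known. Promoters came from RefSeq (GRCr8), and no coordinates of the files' build were used.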

Additional observations from a re-analysis of the deposited data

How the results depend on the processing

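Of 14639 genes, 2 passed 0.05 in limma, and this count moved with most settings: 5 with a pseudocount of 5, 94 with equal library totals, 1 with quantile scaling, 0 with edgeR (2893 at an unadjusted p under 0.05), 1380 with DESeq2 and 0 to 696 with 1 library left out (696 without vehicle replicate 1, 84 without vehicle replicate 3). Of the 7 genes, 0 passed in limma, 5 with DESeq2 and 0 to 2 with 1 library left out in limma. Without vehicle replicate 3, a setting chosen after seeing the data for these tools, edgeR called 207 genes and 2 of the 7, and DESeq2 735 genes and 3 of the 7. Equal library totals shifted the median of all genes to -0.53 on the log2 scale, and the median of the 7 to -2.62.

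Col6a1, Col6a2, Col6a3, Col8a1, Col12a1 and Col16a1 kept a negative log2 fold change in every setting run. Col14a1 turned positive without vehicle replicate 3 (0.10 in limma, 0.20 with edgeR and 0.20 with DESeq2). With 1 library left out its limma value ran from -0.82 to 0.10. The groups did not overlap, on the lower side, in 7 of the 7 genes without ginkgetin replicate 2 and in 5 with quantile scaling. The shares of all genes tested were not computed for these settings, so the counts are no result about these genes. The differences from Col3a1 changed sign for Col6a2 (-0.26 to 0.33 with 1 library left out, -0.25 without vehicle replicate 3), Col12a1 (-0.27 to 0.81, -0.22 without ginkgetin replicate 1) and Col16a1 (-0.11 to 0.32). The causes were not tested. With the replicate number as a block 0 genes and 0 of the 7 passed. Same-numbered samples had deviations correlated at -0.163, 0.0295 and -0.211. This gives no sign that the numbers pair them, but with 3 samples a group it cannot exclude pairing. Col8a1 rests on 12 to 285 reads per library, which limits its precision.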
